A study of Mus musculus with 6 samples.

Results

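The genes of the proteasome were described in the retina of 5XFAD mice that drank efavirenz (EFV) and of control 5XFAD mice. Members were taken by symbol: every gene named Psma to Psmg followed by a number, except Psmb8 and Psmb9. This pattern gave 48 of the 19401 genes listed in at least 1 library. They comprised 7 genes of the alpha ring and 7 of the beta ring of the 20S core, 6 ATPases, 3 other base subunits and 8 lid subunits of the 19S regulatory particle, 5 activators or inhibitors, 7 assembly chaperones and 3 tissue-restricted or inducible core subunits. A further 2 matched by name only, Psmc3ip, which encodes a meiotic recombination protein, and Psme2b, a retrocopy of Psme2.

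There were 3 control and 3 EFV libraries of poly-A RNA, each from a pool of 5 to 6 mice. All mice were F1 hemizygous transgenic 5XFAD animals on the B6SJL background, which carry mutant human amyloid precursor protein and presenilin transgenes, and all were 9 months old. The EFV-treated group received 0.08 mg of EFV per kg of body weight, per the labels, in the drinking water from 3 to 9 months of age, and the control group received the vehicle. The study's methods give a higher dose than the labels, stated per day. EFV is an anti-HIV drug that at a small dose activates the cholesterol hydroxylase CYP46A1. The tissue was 1 retina plus RPE (retinal pigment epithelium) per mouse, from animals described as male. There was no group without the transgenes, and every value is a mean over the mice of a pool.

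The 26S proteasome degrades proteins tagged with ubiquitin. Its 20S core is a barrel of stacked rings, in which the inner beta rings carry the proteolytic sites and the outer alpha rings gate the entry, and its 19S regulatory particle binds ubiquitin chains, removes them and unfolds the substrate with a ring of ATPases. In the intact particle each ring holds its subunits in equal number, and cells adjust the subunit genes together, largely through the transcription factor Nrf1 (Nfe2l1), which binds antioxidant response elements. Photoreceptors have a high turnover of proteins, and inherited misfolding of visual pigments places a load on this system. Interferon signalling induces an alternative set of beta subunits (Psmb8, Psmb9 and Psmb10, the immunoproteasome) and the PA28 activator (Psme1 and Psme2).

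Sequences are shown for the pair of near-identical genes that share reads and for promoters of the catalytic subunits Psmb5 and Psmb6. The coding sequences of Psme2 and of its retrocopy Psme2b were each 717 bases long in the GENCODE annotation of GRCm38 (mm10). They differed at 5 positions, were 99.3% identical and shared an unbroken run of 311 bases. The window from coding base 484 to 543 holds 3 of the 5 differences, printed in capitals. The Psme2 window lies in exons of the minus strand at chr14:55588049-55588246, a span that includes an intron, and the Psme2b window lies in its coding sequence on the minus strand at chr11:48945576-48945635.
Psme2: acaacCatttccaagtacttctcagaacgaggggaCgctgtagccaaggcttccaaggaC
Psme2b: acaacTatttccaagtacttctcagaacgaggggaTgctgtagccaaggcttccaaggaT
Within the coding sequence, a read that covers none of the 5 differing positions can come from either gene. The expected counts of both genes were fractional in all 6 libraries, as were those of Psma3, Psmb5 and Psmd2, and those of Psmb11 and Psmb3 were so in 4 libraries and in 1. The counts of the other 41 members were whole numbers.

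RefSeq promoters (GRCm38.p6, 250 bases before to 50 after the start) were at hand for 40 of the 48 members. The antioxidant response element core TGACNNNGC was found on either strand in 6 of the 40 (15%) and in 3781 of 27025 genes (14%). The 6 members were Psmb5, Psmb6, Psmc6, Psmd12, Psmd9 and Psme4, and the other catalytic subunit, Psmb7, was not among them. The CCAAT box was found in 14 members (35%) and 41.1% of genes, and matches of both motifs were allowed to overlap. Windows of the catalytic subunits Psmb5 (chr14:54618024-54618052, minus strand) and Psmb6 (chr11:70525338-70525366, plus strand) are printed with the motif in capitals, and these motifs began 47 and 9 bases before the start that the promoter table uses. For Psmb6 the RefSeq gene begins upstream of that start, at position 70525324, so its motif lies inside the annotated gene.
Psmb5: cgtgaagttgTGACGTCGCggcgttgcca
Psmb6: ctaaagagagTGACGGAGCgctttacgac
A match of letters is a description of the window and not a site of binding.

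The libraries held 23455167 to 24590278 counts. Rod and cone markers, which define the labelled tissue, were abundant, with a summed level of 12352 to 13121 FPKM (fragments scaled by transcript length and by the depth of the library). Several libraries stood apart in marker sums. Red blood cell markers summed to 198, 103 and 142 FPKM in control and to 99.4, 82.1 and 217 FPKM in EFV-treated mice. RPE markers summed to 13.8 FPKM in control 2 and to 21.4 to 28.8 FPKM in the other libraries. Lens markers summed to 822 FPKM in control 3 and to 8.78 to 34.4 FPKM in the other libraries. The summed level of 4 Y-linked genes (Ddx3y, Eif2s3y, Kdm5d and Uty) was 25.2 FPKM in EFV 3, 69.8 FPKM in EFV 1 and 51.9 to 55.7 FPKM in the others, although the mice are described as male. Calls at the limits of the study that were gained or lost without control 3 or EFV 3 are given beside the gene. The part of these differences in the values below was not tested.

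Transcripts of the core and of the regulatory particle were abundant, and their levels spanned up to 4.86-fold within a particle. The 48 genes took 0.246% to 0.262% of all counts in a library. Of the 14 genes of the 20S rings, mean levels over 6 libraries ran from 17.7 FPKM (Psma3) to 86.0 FPKM (Psmb4), a span of 4.86-fold. Of the 17 genes of the 19S particle, they ran from 20.7 FPKM (Psmd13) to 86.0 FPKM (Psmd8), a span of 4.15-fold. The beta ring stood above the alpha ring in all 6 libraries, with summed levels of 469 to 542 FPKM against 299 to 327 FPKM for the same number of genes. The ATPases were the most even role, with mean levels of 45.9 to 68.9 FPKM. Activators and the inhibitor were at 10.8 to 41.7 FPKM and assembly chaperones at 5.93 to 20.2 FPKM. In tissue of mixed cells, a lower level of a transcript cannot be told apart from fewer of the cells that make it.

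**Figure D1:**
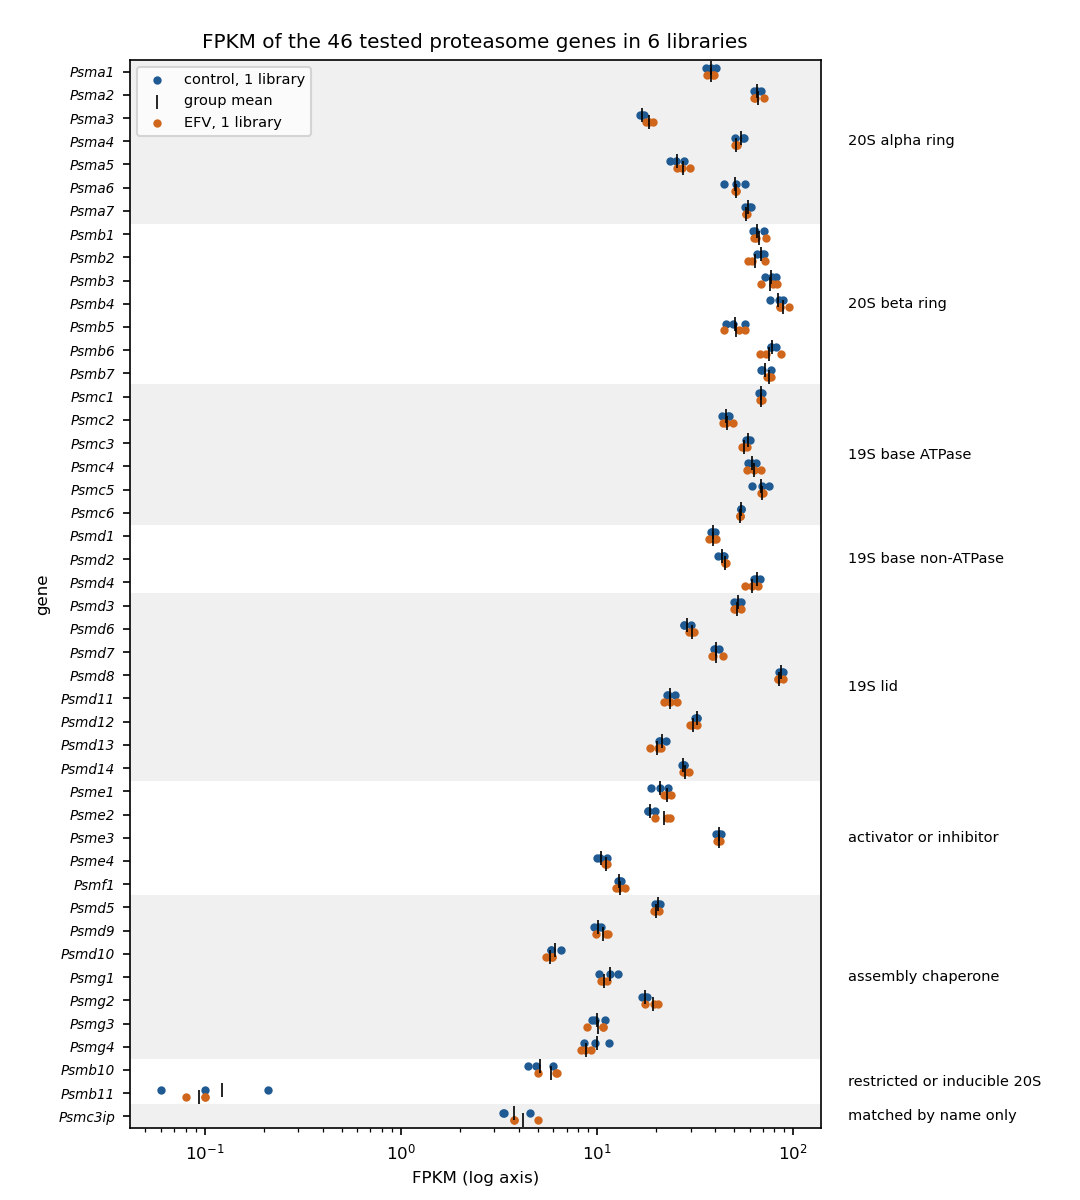
The level of each of the 46 tested genes in FPKM on a log axis, by role from top to bottom, with 3 control libraries in blue, 3 EFV libraries in orange and a black tick for each group mean. Single libraries of the core and regulatory particle genes run from 16.5 FPKM (Psma3, control 2) to 95.6 FPKM (Psmb4, EFV 3), while Psmb11 stands far to the left.

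The treated and the control pools were compared to ask which transcripts moved with the treatment. Transcripts of the core and regulatory particles differed little. The fold change (EFV-treated over control, on counts scaled with TMM) of their 31 genes lay between -0.12 (Psmb2) and 0.11 (Psma3) on the log2 scale, and 28 of the 31 lay within 0.1 of 0. Every 95% interval of these 31 genes lay between -0.28 and 0.26. Of the 48 members 46 had enough counts to be tested (at least 10 in at least 3 libraries), and 18 of them had a higher and 28 a lower fitted level in EFV-treated mice. That split depended on the scaling, as it was 25 higher and 21 lower with total counts only and 27 and 19 with limma on log2(FPKM + 1). The median log2 fold change was -0.0092 over the 46 members and 0.0012 over all 15537 genes tested.

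No member passed the quasi-likelihood test of edgeR at an adjusted p of 0.05 (0% of all genes tested did), and the smallest adjusted p of a member was 0.999. At an unadjusted p of 0.05, 1 member passed with edgeR, 0 with DESeq2 and 2 with limma. The share of all genes at this p was not taken, so these counts have no background beside them. At the limits of the study, an unadjusted p of 0.05 with a change of at least 7% (0.098 on the log2 scale), edgeR called 1 of 46 members higher, Psme2, and 0 lower. The study put these limits on a test based on the Poisson distribution, so calls made here are not calls of the study. No member, Psme2 included, stands in the study's list of differentially expressed genes. Over all genes tested the same limits called 1.47% higher and 1.54% lower. The EFV libraries lay entirely above the control libraries in CPM (counts scaled to the size of the library) for 2 members, Psma3 and Psmd2, and entirely below for 3, Psmc3, Psmc6 and Psmd12. These were 4.35% and 6.52% of the members, and over all genes the shares were 3.95% above and 4.18% below, so the members' counts were near the background. An exact permutation test of 3 against 3 libraries cannot give a two-sided p below 0.10, and p-values therefore rest on the model.

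**Figure D2:**
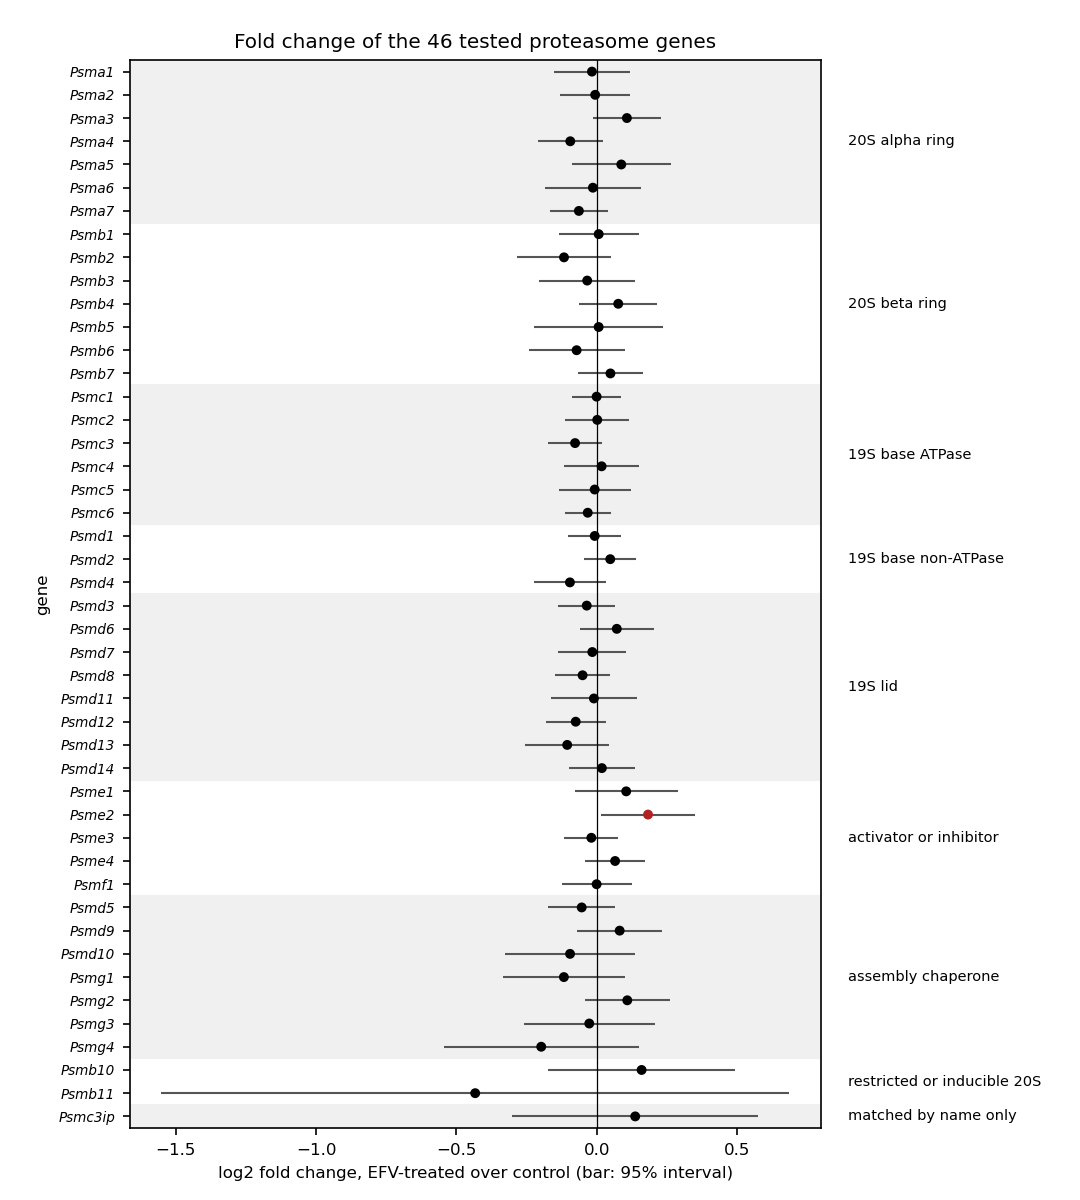
The log2 fold change of EFV-treated over control mice for the 46 tested genes by role, with points for the estimate of edgeR and bars for its 95% interval. All intervals except that of Psme2 (red) include 0, and the 31 core and regulatory particle genes have narrow intervals between -0.28 and 0.26.

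The alpha ring gates the core. Its lowest transcript in FPKM, Psma3, was at 17.4, 16.5 and 16.9 FPKM in the 3 control libraries and at 17.7, 18.5 and 19.2 FPKM in the EFV libraries. The EFV libraries lay above all control libraries, with a log2 fold change of 0.11 (SE 0.0529, unadjusted p = 0.0740 with edgeR). Psma3 was also the longest transcript of the ring (2375 bases). In CPM, which is not scaled by length, Psma5 was lower than Psma3 (27.5 to 34 against 38.9 to 44 CPM). Psma4 was at 55.9, 55.3 and 50.5 FPKM in control and 50.3, 51.5 and 51.9 FPKM in EFV-treated mice, and the groups overlapped (log2 fold change -0.09, SE 0.0511). Psma2, the most abundant gene of the ring, was at 65.5 ± 2.77 FPKM in control and 66.1 ± 4.53 FPKM in EFV-treated mice (SD, n = 3). The other 4 genes of the ring had log2 fold changes from -0.06 (Psma7) to 0.09 (Psma5). Psma3 passed the limits with limma on log2(FPKM + 1) and without EFV 1, and Psma4 passed them, as lower, without control 3 (log2 fold change -0.14, unadjusted p = 0.0270 with edgeR).

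The beta ring holds the 3 catalytic subunits. Psmb5, the chymotrypsin-like protease, was at 56.9, 45.5 and 49.1 FPKM in control and 44.5, 52.6 and 56.9 FPKM in EFV-treated mice. The groups overlapped over nearly their whole range, and the log2 fold change was 0.01 (95% interval -0.22 to 0.24). This was the widest interval among the genes of the core. Psmb6, the caspase-like protease, was at 81.3, 76.6 and 77.1 FPKM in control and 72.5, 67.9 and 86.2 FPKM in EFV-treated mice (log2 fold change -0.07, 95% interval -0.24 to 0.10). Psmb7, the trypsin-like protease, was at 77.2, 69.5 and 68.7 FPKM in control and 73.8, 74.9 and 76.9 FPKM in EFV-treated mice (log2 fold change 0.05, 95% interval -0.07 to 0.16). In none of the 3 were the groups apart.

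Of the non-catalytic beta subunits, Psmb4 had the highest level of the ring, at 88.3, 76.2 and 85.0 FPKM in control and 85.2, 85.6 and 95.6 FPKM in EFV-treated mice (log2 fold change 0.08, SE 0.0615). Psmb2 was at 71.1, 69.3 and 65.2 FPKM in control and 61.4, 58.6 and 72.0 FPKM in EFV-treated mice (log2 fold change -0.12, SE 0.0738). In both Psmb2 and Psmb6, EFV 3 was the highest of all 6 libraries and the other EFV libraries were the lowest. Without EFV 3, the library with the low Y-linked level, the log2 fold change was -0.20 for Psmb2 (unadjusted p = 0.00705 with edgeR). It was -0.17 for Psmb6 (unadjusted p = 0.00723 with edgeR). Both passed the limits as lower, as did Psmd4 (-0.15, unadjusted p = 0.0234 with edgeR). Leaving EFV 3 out also lowered the SE, from 0.0738 to 0.0564 for Psmb2 and from 0.0756 to 0.0477 for Psmb6. With all libraries none of these genes passed the limits. The share of all genes called lower without EFV 3 was not taken. The transcripts of Psmb2 and Psmb6 are 861 and 1036 bases long. Genes of 700 to 1300 bases had, relative to their own means, a higher median level in EFV 3 than in EFV 1 and EFV 2, as given below. The part of transcript length in the values without EFV 3 was not tested.

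In the base of the regulatory particle, the ATPases unfold substrates and open the gate of the core. Psmc3 was at 95.8, 95.5 and 91.5 CPM in control and 86.3, 90.2 and 91.4 CPM in EFV-treated mice. The highest EFV library lay just below the lowest control library, and the log2 fold change was -0.08 (SE 0.0420, unadjusted p = 0.0971 with edgeR). Psmc6 had the least spread of all members (coefficient of variation of its FPKM over 6 libraries 0.663%), at 81.7, 83.1 and 81.8 CPM in control and 80.4, 80.8 and 79.9 CPM in EFV-treated mice. Its groups did not overlap, yet they differed by only -0.03 on the log2 scale (SE 0.0363, unadjusted p = 0.392 with edgeR). The most abundant ATPase, Psmc5, was at 68.6 ± 6.59 and 69.2 ± 0.940 FPKM and the least abundant, Psmc2, at 45.6 ± 2.17 and 46.2 ± 2.69 FPKM in control and EFV-treated mice (SD, n = 3). Psmc4 had the highest fold change of the 6, 0.02 on the log2 scale (SE 0.0596).

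The other base subunits are scaffolds and receptors of ubiquitin. The scaffold Psmd2 was at 129, 124 and 131 CPM in control and 132, 133 and 132 CPM in EFV-treated mice, which placed the EFV libraries above the control libraries by a log2 fold change of 0.05 (SE 0.0405). The ubiquitin receptor Psmd4 was at 86.5, 84.0 and 80.9 CPM in control and 78.6, 72.7 and 83.9 CPM in EFV-treated mice (log2 fold change -0.10, SE 0.0569). Its groups overlapped through EFV 3. Psmd1, also a scaffold, had the lowest level of the base subunits other than ATPases, at 39.9, 38.2 and 38.4 FPKM in control and 40.4, 37.4 and 39.4 FPKM in EFV-treated mice.

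The lid removes ubiquitin from substrates, and its genes had the widest range of levels in the regulatory particle. Psmd8 was at 87.0 ± 2.44 FPKM in control and 85.1 ± 3.16 FPKM in EFV-treated mice (SD, n = 3). Psmd13, the lowest, was at 22.5, 20.7 and 21.0 FPKM in control and 21.3, 18.5 and 20.5 FPKM in EFV-treated mice, with overlapping groups (log2 fold change -0.11, SE 0.0657). Psmd12 was at 54.0, 53.8 and 54.0 CPM in control and 53.2, 51.2 and 49.0 CPM in EFV-treated mice. Its control libraries were almost equal and all EFV libraries were below them (log2 fold change -0.08, SE 0.0471, unadjusted p = 0.144 with edgeR). Psmd6 had the highest fold change of the lid (0.07, SE 0.0584), and the deubiquitinase Psmd14 was at 27.9, 27.0 and 27.6 FPKM in control and 29.4, 27.9 and 27.3 FPKM in EFV-treated mice.

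The question of whether the core moved against the regulatory particle was addressed by the ratio of their summed levels. This ratio was 1.02, 0.975 and 0.961 in the control libraries and 0.949, 1.00 and 1.03 in the EFV libraries. The means were 0.985 ± 0.0300 and 0.993 ± 0.0399 (SD, n = 3), the ratio of EFV-treated to control was 1.01, and the lowest and the highest library were both EFV-treated. With geometric means, or with all Psmc and Psmd genes counted in the regulatory particle, the ratio of EFV-treated to control was again 1.01. The median log2 fold change was -0.01 for the 14 core genes, of which 6 had a higher and 8 a lower fitted level, and -0.01 for the 17 regulatory particle genes, of which 5 had a higher and 12 a lower fitted level. Without control 3 these medians were -0.0164 and -0.0169 and the ratio of EFV-treated to control was 0.996. Without EFV 3 the medians were -0.0536 and -0.0395 and the ratio was 0.991.

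Single pools of the core differed more than the groups did. The deviation of a gene was taken as its log2 CPM in a library less its mean over 6 libraries. The mean deviation of the 14 core genes was 0.0809, -0.0325 and -0.0382 in the control libraries and -0.0663, -0.0107 and 0.0668 in the EFV libraries, a span of 0.147 between EFV 1 and control 1. Control 1 was the highest library for 6 core genes and EFV 3 for 7, and EFV 1 was the lowest for 6. The beta ring spanned more than the alpha ring. Its mean deviation ran from -0.0964 in EFV 1 to 0.1112 in EFV 3, and that of the alpha ring from -0.0388 in control 3 to 0.0695 in control 1. In EFV 1 and EFV 3 the alpha ring was at -0.0361 and 0.0224, and Psma1, Psma4, Psma6 and Psma7 lay below their own means in EFV 3. The 17 regulatory particle genes had a smaller span between libraries (0.0729), with mean deviations of 0.0318, -0.0114 and 0.0123 in control and -0.0006, -0.0412 and 0.0091 in EFV-treated mice. The SD between libraries of a group was 0.0670 for the core and 0.0243 for the regulatory particle, whereas EFV-treated and control means differed by -0.0068 and -0.0218.

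Transcript length moved with this pattern over all genes. The core transcripts were short, with a median of 991 bases against 1564 bases for the regulatory particle. Over the 902 genes of 700 to 1300 bases with more than 5 CPM, the median deviation was 0.0542, -0.0246 and 0.0067 in the control libraries and -0.0332, -0.0326 and 0.0384 in the EFV libraries, which again placed control 1 and EFV 3 highest. When the trend with length was removed in each library, the span of the core between libraries was 0.0817 in place of 0.147, and that of the regulatory particle 0.0308 in place of 0.0729. The core of EFV-treated mice then differed from control by 0.0120, less than the SD between libraries of 0.0375, and the regulatory particle by -0.0144, slightly more than its SD of 0.0122.

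**Figure D3:**
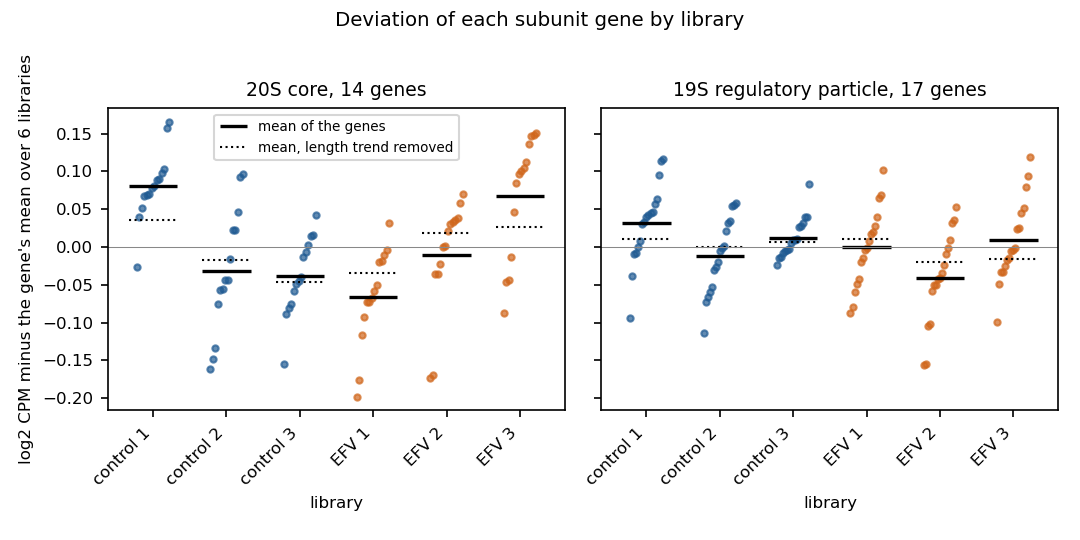
The deviation of each gene in each library (log2 CPM less its mean over 6 libraries) for the 14 core genes on the left and the 17 regulatory particle genes on the right, with control libraries in blue and EFV libraries in orange. Solid lines are means of the genes, which for the core are highest in control 1 and EFV 3 and lowest in EFV 1, and dotted lines are means after removal of the length trend, which for the core lie closer to 0 in those 3 libraries.

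Activators bind the core in place of the 19S particle. Psme2, a subunit of the interferon-inducible PA28, was at 17.8, 18.2 and 19.6 CPM in control and 19.4, 21.9 and 21.6 CPM in EFV-treated mice. EFV 1 lay just below control 3, so the groups overlapped by 1 pair of libraries, and Psme2 was the only member at the limits of the study (log2 fold change 0.18, SE 0.0745, 1.13-fold, unadjusted p = 0.0371 and adjusted p = 0.999 with edgeR). DESeq2 gave an unadjusted p = 0.0932, and edgeR gave an unadjusted p = 0.0899 to 0.121 without any one of control 1, control 2, EFV 2 or EFV 3. Without control 3 the log2 fold change was 0.22 (unadjusted p = 0.0273 with edgeR). The retrocopy Psme2b had 7, 3 and 8 counts in control and 21, 11 and 3 counts in EFV-treated mice and was not tested. With the reads of both genes summed, a comparison added after the values were seen, levels were 18.1, 18.3 and 19.9 CPM in control and 20.3, 22.4 and 21.7 CPM in EFV-treated mice, and the groups no longer overlapped (log2 fold change 0.20, SE 0.0710, unadjusted p = 0.0225 with edgeR).

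Psme1, the partner of Psme2 in PA28, was at 21.3, 19.6 and 17.6 CPM in control and 20.2, 21.0 and 21.7 CPM in EFV-treated mice, with overlapping groups (log2 fold change 0.10, SE 0.0810). Psme3, the nuclear relative of PA28 and the most abundant activator, was at 41.7 ± 1.19 and 41.6 ± 0.637 FPKM, and Psme4, which encodes the activator PA200, was at 10.5 ± 0.588 and 11.1 ± 0.110 FPKM in control and EFV-treated mice (SD, n = 3). The inhibitor Psmf1 had a log2 fold change of 0.00 (SE 0.0549). These 4 genes did not pass the limits.

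Psmb10, the immunoproteasome counterpart of Psmb7, was at 7.26, 6.02 and 5.44 CPM in control and 7.41, 6.08 and 7.43 CPM in EFV-treated mice, and the groups overlapped (log2 fold change 0.16, SE 0.147). Its companions Psmb8 and Psmb9, which the rule left out, were low, and their values were singled out after they had been seen. Psmb8 was at 1.91, 1.34 and 1.98 CPM in control and 2.39, 2.19 and 2.53 CPM in EFV-treated mice (log2 fold change 0.44, SE 0.214, unadjusted p = 0.0700 with edgeR). Psmb9 had 18, 9 and 26 counts (0.98, 0.51 and 1.43 FPKM) in control and 29, 30 and 28 counts (1.58, 1.66 and 1.55 FPKM) in EFV-treated mice (log2 fold change 0.69, SE 0.347, unadjusted p = 0.0784 with edgeR). In both genes the EFV libraries lay above all control libraries, as they did for 3.95% of all genes tested. Neither gene passed the limits with edgeR on all 6 libraries, and both did with limma on log2(FPKM + 1). Without control 3 Psmb9 passed them with edgeR (log2 fold change 1.0667, unadjusted p = 0.0171), and without control 2 the log2 fold changes were 0.39 for Psmb9 and 0.29 for Psmb8, below the values with all libraries.

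Markers of other cells and of the interferon response were set beside these inducible genes. Of 6 interferon-response genes, 5 had a higher fitted level in EFV-treated mice and 1, Oasl2, passed the limits, and their summed level was 19.4 to 19.9 FPKM in control and 20.9 to 24.7 FPKM in EFV-treated mice. Of 7 markers of microglia and leukocytes 6 were tested, 3 were higher and 0 passed, and the summed level of the 7 was 10.2 to 12.4 FPKM and 10.4 to 11.4 FPKM. All 6 RPE markers were higher and 2 passed (Rpe65 and Lrat). Their summed level was 24.7, 13.8 and 23.9 FPKM in control and 21.4, 28.8 and 28.3 FPKM in EFV-treated mice. Control 2 was the lowest library, and control 1 and control 3 both lay above EFV 1. Over all genes tested, 7853 of 15537 had a higher fitted level in EFV-treated mice, and 1.47% passed the limits as higher. No marker of these 3 lists was at 0 in any library. Oasl2, Rpe65 and Lrat stand in a gene list that the study drew from these libraries, so these calls are not independent of it. The part of these markers in the values of Psme2, Psmb8 and Psmb9 was not tested.

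**Figure D4:**
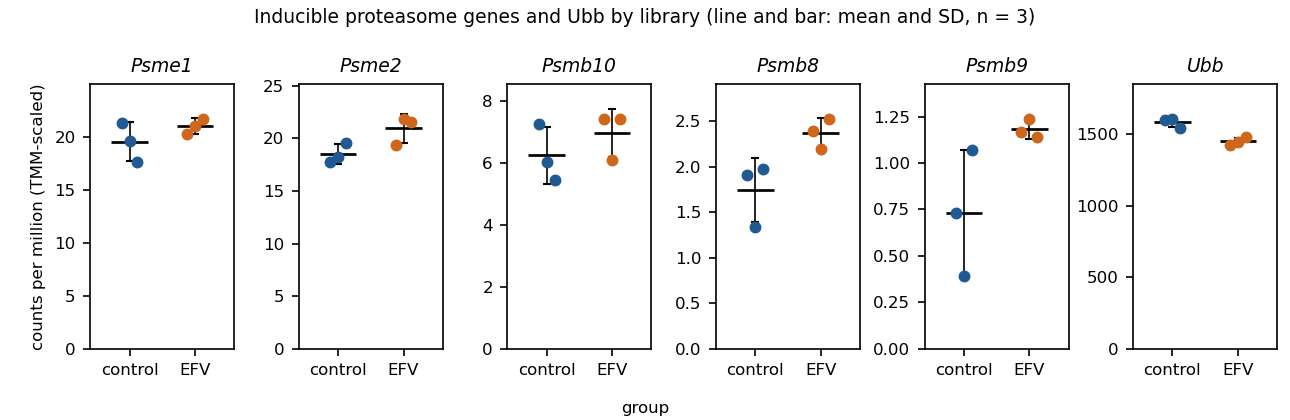
Levels in CPM of Psme1, Psme2, Psmb10, Psmb8, Psmb9 and Ubb in each of 3 control (blue) and 3 EFV (orange) libraries, each panel on its own linear axis from 0, with the mean as a line and the SD as a bar. The EFV points lie above all control points for Psmb8 and Psmb9 and below them for Ubb, and the groups overlap for Psme1, Psme2 and Psmb10.

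Assembly chaperones guide the building of the rings and of the base and then leave. All 7 were tested, 2 with a higher and 5 with a lower fitted level, and 0 passed the limits. Psmd5, a chaperone of the base, was the most abundant at 20.4 ± 0.626 and 19.9 ± 0.617 FPKM, and Psmd10, also a chaperone of the base, the least at 6.09 ± 0.425 and 5.77 ± 0.231 FPKM in control and EFV-treated mice (SD, n = 3). Psmg2, a chaperone of the alpha ring, had the highest fold change, at 29.8, 27.5 and 26.0 CPM in control and 29.8, 29.2 and 30.9 CPM in EFV-treated mice (log2 fold change 0.11, SE 0.0667), and it passed the limits without control 1. Psmg4 had the lowest, at 5.72, 4.90 and 4.25 CPM in control and 4.58, 4.09 and 4.29 CPM in EFV-treated mice (log2 fold change -0.20, SE 0.153). In both genes the groups overlapped.

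The subunits restricted to other organs were near the floor of detection. Psma8, the alpha subunit of the testis, had 2 counts in each of control 2, control 3 and EFV 1 and was not listed in the other 3 libraries. Psmb11, the beta subunit of the thymus, had 10, 21 and 6 counts in control and 8, 10 and 10 counts in EFV-treated mice. Its log2 fold change was -0.43, with a 95% interval of -1.55 to 0.69. The recombination gene Psmc3ip was at 4.22, 3.12 and 3.13 CPM in control and 4.58, 3.51 and 3.43 CPM in EFV-treated mice (log2 fold change 0.14, SE 0.194). At this depth no difference between the groups was detectable for Psmb11 or Psmc3ip.

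Genes that work with the proteasome were read from a list of 29, of which 28 were found and tested. Of these, 11 had a higher and 17 a lower fitted level in EFV-treated mice, and at the limits of the study 0 passed as higher and 1, Ubb, as lower. Over all genes tested 1.47% passed as higher and 1.54% as lower. The EFV libraries lay entirely above the control libraries in CPM for Psmb8 and Psmb9, and entirely below for Uchl5, Pomp and Ubb. Over all genes the shares were 3.95% above and 4.18% below. Ubb, a gene of polyubiquitin, was at 1599, 1612 and 1549 CPM in control and 1426, 1450 and 1479 CPM in EFV-treated mice. All EFV libraries were below all control libraries, by 0.13 on the log2 scale (log2 fold change -0.13, SE 0.0361, unadjusted p = 0.00621 and adjusted p = 0.999 with edgeR). Limma on log2(FPKM + 1) gave an unadjusted p = 0.115. Ubb stands in a gene list that the study drew from these libraries, so its value is not independent of that choice.

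Nfe2l1, the factor that drives subunit genes, was at 184, 186 and 185 CPM in control and 185, 189 and 176 CPM in EFV-treated mice (log2 fold change -0.01, 95% interval -0.11 to 0.09). Pomp, the maturation factor of the core, was at 52.2, 49.3 and 50.3 CPM in control and 48.5, 48.6 and 48.2 CPM in EFV-treated mice. Its EFV libraries lay below the control libraries (log2 fold change -0.06, SE 0.0457, unadjusted p = 0.195 with edgeR). The deubiquitinase Usp14, which docks on the base, was at 65.5, 64.1 and 62.3 CPM in control and 62.9, 62.9 and 63.1 CPM in EFV-treated mice (log2 fold change -0.02, SE 0.0407). The groups overlapped for Nfe2l1 and Usp14. Usp14 and Rad23b, also of the related list, stand in the study's list of proteins that differed with the treatment. The study also reports that proteins regulating breakdown by the proteasome were enriched in that list. Protein levels were not examined here, and the values above are of RNA.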

How the data were processed

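Sequenced were 6 libraries of poly-A RNA, 3 per group, each a pool. The authors made the deposited expected counts per gene with RSEM (1.2.12) after alignment with Bowtie2 (2.2.5) to mm10, and the deposited FPKM values with the same program; HISAT2 (2.0.4) also stands in the submitters' processing notes. The gene length deposited beside them was used for the length trend. The annotation release and strand setting are not given in the sources used here. A gene absent from a library was taken as 0.

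Expected counts were rounded and those reaching 10 counts in 3 or more libraries were tested with edgeR 4.0.16 (R 4.3.3): TMM, quasi-likelihood, group as the only term, two-sided, BH over 15537 genes. Separate calls used an unadjusted p of 0.05 and a change of at least 7%. The biological coefficient of variation over all genes was 0.0983, and at this depth the standard errors of the core and regulatory particle genes were 0.0363 to 0.102 (log2). No libraries were duplicates (chi-square per degree of freedom 5.47 to 13.7). Nothing says more of how pools were formed, and p-values measure the spread between pools.

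Alternatives were RLE, total counts, no filter, genes with Entrez identifiers only, DESeq2 1.42.0, limma 3.58.1 on log2 FPKM with pseudocounts of 1 and 0.1, replicate block, removal of a length trend (lowess, span 0.3) and leaving out each library. The members, lists and limits were chosen with earlier results of these data known. Genes were named by rule: members at the limits or with groups that do not overlap, the extremes of level and fold change in each role, the catalytic and inducible subunits, untested members, and listed related genes at the limits, with Nfe2l1, Pomp, Usp14 and Ubb; 1 further gene is not reported here. Psmb8, Psmb9, Uchl5 and the Y-linked genes were named after their values were seen. Members with the promoter match were named for it, and Rad23b for its place in the study's protein list. Names matched by symbol or, for 1 gene, by synonym; 1 listed gene, Paaf1, was not found.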

Additional observations from a re-analysis of the deposited data

How the results depend on the processing

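The count of members at the limits of the study was 1 under RLE, total counts, no filter, Entrez genes only, the length trend removed and the summed Psme2 pair, 0 with DESeq2, 2 with limma at either pseudocount, and 0 to 3 when a library was left out. The share of all genes at the limits was taken only for the main fit, so the counts under alternatives have no background beside them. No member had an adjusted p of 0.05 or less under any alternative run. The median of the regulatory particle was -0.0395 to -0.0059 when a library was left out, and that of the core -0.0536 to 0.0384; the lowest values were without EFV 3 and the highest were without control 1. The core was also above 0 with total counts (0.0049), limma (0.0103 and 0.0105) and the length trend removed (0.0107), and the regulatory particle with total counts (0.0052) and limma (0.0047 and 0.0048). The ratio of core to regulatory particle, EFV-treated over control, was 0.991 to 1.03 without a library. Of 30 genes followed, Nfe2l1 reversed with total counts (0.0028) and with limma (0.0239 and 0.0244). When a library was left out, a reversal occurred within the ranges -0.768 to 0.219 (Psmb11), -0.0678 to 0.1001 (Psmb5), -0.0088 to 0.296 (Psmc3ip), -0.0405 to 0.0696 (Psmc4) and -0.0358 to 0.0166 (Nfe2l1). Without control 3, log2 fold changes moved by over 1.5 times, with no change of sign, for Psme1 (0.0354), Psmb10 (0.0686), Psmb7 (0.0162), Psmg2 (0.0625), Psmc3ip (0.0630), Psme3 (-0.0013), Psme4 (0.1056), Psmd6 (0.1096), Psmg4 (-0.2986), Psmb11 (-0.7681), Psmb9 (1.0667) and Usp14 (-0.0424). Without EFV 3 they did so for Psmb2 (-0.2042), Psmb4 (0.0258), Psmb6 (-0.1718), Psmd4 (-0.1477), Psmd12 (-0.0455), Psme3 (-0.0049) and Psmc3ip (0.2114). The cause was not tested.

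With the replicate number as a block 1 member was at the limits, as without it, and the medians were -0.0083 for the core and -0.0116 for the regulatory particle. Libraries of the same number had correlations of deviations of 0.104, 0.0337 and 0.139, and those of different numbers ran from -0.148 to 0.0499. EFV 2 correlated more with control 1 (0.0499) than with control 2 (0.0337). These values do not settle whether the numbers pair the samples, and the main fit used no pairing.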
